A study of Mus musculus with 2 samples.

Results

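The adult globin genes and a set of haem synthesis and carbonic anhydrase genes were examined in 2 single-cell RNA libraries of sorted LSK (Lin- Sca-1+ c-Kit+) marrow cells. The set holds 10 of the 27998 genes in the matrices: the globins Hba-a1, Hba-a2, Hbb-bt and Hbb-bs, the haem synthesis genes Alas1, Alas2, Fech and Urod, and the carbonic anhydrases Car1 and Car2. These genes were selected by symbol with earlier results of the same libraries in view, so their levels are given as a description, without a test. Marrow came from 3-month-old mice. The Trmt6 WT library is labelled Trmt6fl/fl and the Trmt6 cKO library Trmt6fl/fl with MX1-cre, so by the labels both groups share the floxed Trmt6 alleles. The study itself gives the control differently: where it describes this experiment, the control is Trmt6+/+ with Mx1-Cre and both genotypes received pIpC, and its account of breeding names Trmt6fl/+ with Mx1-Cre. Which alleles and whether Cre were present in the WT library is thus not settled by these sources. Mx1-Cre is switched on by interferon, which pIpC induces, and it acts in many cell types of the marrow and beyond. Each genotype is 1 library, so genotype and library cannot be told apart, and the number of pooled animals was not given in the sources used here. The labels name version 2 of the 3-prime kit and the study's methods version 3.

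Haemoglobin carries oxygen in red cells as a tetramer of alpha and beta globin chains, each holding a haem group. Hba-a1 and Hba-a2 encode the adult alpha chain, and Hbb-bs and Hbb-bt encode adult beta chains in strains that carry the single haplotype of the locus. Haem synthesis starts with 5-aminolevulinate synthase, made from Alas1 in most cells and from Alas2 in erythroid cells, while Urod and Fech encode later enzymes, the last of which inserts iron. Carbonic anhydrases interconvert carbon dioxide and bicarbonate. Car1 is expressed in committed erythroid progenitors and red cells, and Car2 also in stem cells, megakaryocyte-erythroid progenitors and osteoclasts. Globin transcripts are made at high levels in late erythroblasts, which the LSK sort leaves out, and free globin RNA from broken red cells or erythroblasts can enter any droplet.

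The WT library held 8869 cell barcodes and the cKO library 9260, of which 8144 and 8480 cells were kept after the limits of the study and removal of likely doublets. Depth differed, with a median of 4171 unique molecular identifiers (UMIs, each standing for 1 captured transcript) per WT cell and 10063.5 per cKO cell, so shares of cells were compared after thinning each cell to 2000 UMIs. This left 7943 WT and 8375 cKO cells and dropped 201 and 105 shallower cells. The libraries shared 24 barcodes, 21 of them kept cells. Trmt6 itself had 2671 WT and 4409 cKO UMIs, which is 63.5 and 50.4 UMIs per 1000000 (CPM), and its log2 ratio of cKO over WT was -0.33 (-0.40 to -0.26). These 3-prime counts do not show whether a transcript held the floxed part. All intervals are 95% intervals and cover counting error only, and no comparison has a replicate check.

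The 4 globin genes lie in 2 clusters and have 3 exons each. Hba-a1 (11:32283511-32284465) and Hba-a2 (11:32296489-32297298) lie on the plus strand of chromosome 11 in GRCm38, and Hbb-bt (7:103812524-103813996) and Hbb-bs (7:103826534-103828096) on the minus strand of chromosome 7. Within each pair the transcripts are close copies. Of all 90-base windows of the reference transcripts, 44.5% of those of Hbb-bt and 36.7% of those of Hbb-bs occurred in no other globin of the set, against 41.1% for Hba-a1 and 22.8% for Hba-a2. In the last 300 bases, where 3-prime reads fall, 75.8% and 75.4% of the windows of Hbb-bt and Hbb-bs were unique, and 42.7% and 50.2% for Hba-a1 and Hba-a2. Every shared window was shared with the partner gene, so the split of UMIs between partners is uncertain, more so for alpha than for beta globin.

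The beta globin promoters are shown because the libraries counted these neighbouring genes so differently. RefSeq promoters (GRCm38.p6, 250 bases before to 50 after the start) were found for 7 of the 10 genes. The windows are chr7:103813874-103814173 for Hbb-bt and chr7:103827879-103828178 for Hbb-bs, both printed 5′ to 3′ on the minus strand, and capitals mark matches on either strand to CCAAT boxes (ATTGG on the other strand), to CACCC boxes, to the TATA box TATAAA or to the GATA motif AGATAA.
Hbb-bt: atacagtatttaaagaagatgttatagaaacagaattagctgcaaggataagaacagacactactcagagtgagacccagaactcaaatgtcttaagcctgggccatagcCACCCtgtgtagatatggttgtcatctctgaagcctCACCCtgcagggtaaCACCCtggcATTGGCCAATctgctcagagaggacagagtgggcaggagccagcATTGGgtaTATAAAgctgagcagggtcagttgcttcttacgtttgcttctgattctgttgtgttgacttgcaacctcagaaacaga
Hbb-bs: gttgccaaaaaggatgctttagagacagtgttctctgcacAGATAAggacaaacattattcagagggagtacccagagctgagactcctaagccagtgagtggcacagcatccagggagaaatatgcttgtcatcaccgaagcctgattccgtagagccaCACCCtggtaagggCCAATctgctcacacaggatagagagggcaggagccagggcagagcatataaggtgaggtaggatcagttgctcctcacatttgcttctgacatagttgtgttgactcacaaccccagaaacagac
The CCAAT and CACCC boxes are known from beta globin promoters, and GATA factors bind in many erythroid genes. The Hbb-bt window held CCAAT 3 times, CACCC 3 times and TATAAA 1 time. That of Hbb-bs held the CCAAT, the CACCC and the AGATAA motif 1 time each and no exact TATAAA. Only exact matches were marked, so near forms such as the tataag of the Hbb-bs window are left out. In Hbb-bt, 1 CCAAT on each strand lie end to end. Of 32851 RefSeq promoters of the same length, 37.4% hold CCAAT, 57.5% CACCC, 13.6% TATAAA and 11.2% AGATAA, so these matches are common. Aligned, the windows were identical at 226 of 311 positions (72.7%), while those of Hba-a1 and Hba-a2 matched at 98.0%.

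Among the globins, Hbb-bt made up most of the counts in both libraries and was far higher in cKO. It went from 880 UMIs in the WT library to 21300 in the cKO library, and its level was 20.9 CPM (19.5 to 22.3) in WT against 243.7 CPM (240.4 to 247.0). The log2 ratio was 3.54 (3.45 to 3.64), an 11.7-fold difference that ranked 28 from the top among the 9142 genes that reached 5 CPM in either library. Hbb-bs had 124 WT and 543 cKO UMIs, with levels of 2.95 CPM (2.45 to 3.51) and 6.21 CPM (5.70 to 6.76), and its log2 ratio was 1.07 (0.79 to 1.37). The direction of Hbb-bs rested on 1 barcode in each library that was left out for its haemoglobin content and is described below: with these barcodes back, its log2 ratio was -0.75. Hbb-bt stayed higher in cKO with them, at 3.21.

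The alpha globins went the other way, at lower levels. Hba-a1 had 201 WT and 175 cKO UMIs, or 4.78 CPM (4.14 to 5.48) and 2.002 CPM (1.72 to 2.32), and Hba-a2 had 99 and 93 UMIs, or 2.35 CPM (1.91 to 2.86) and 1.06 CPM (0.859 to 1.30). Their log2 ratios were -1.25 (-1.55 to -0.95) and -1.14 (-1.57 to -0.72). A single WT cell held 141 of the 201 Hba-a1 UMIs (70.1%), and without the cell with most Hba-a1 UMIs in each library the ratio turned to 0.15. Without the cell with most Hba-a2 UMIs in each library, that of Hba-a2 was -0.39. The direction of Hba-a1 therefore rested on 1 cell, and that of Hba-a2 is not read as settled. Embryonic and other globins were close to absent: the 9 measured genes of that list had 2 UMIs in WT and 15 in cKO, of which Hbb-bh1 had 6 and Hbb-y 4, both in cKO.

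Among the haem synthesis genes, Alas1, the housekeeping form of the first enzyme, was lower in cKO. It had 4680 UMIs in WT and 2430 in cKO, with levels of 111 CPM (108 to 114) and 27.8 CPM (26.7 to 28.9), and its log2 ratio was -2.00 (-2.07 to -1.93). With each cell given equal weight, by averaging CPM per cell, this ratio was -1.29, and its level by group of cells is given below. Alas2, the erythroid form, had 3 UMIs in WT and 1 in cKO, which is too few for a ratio. Fech, encoding ferrochelatase, stood at 24.4 and 19.2 CPM (log2 ratio -0.34, -0.46 to -0.23), and Urod, encoding uroporphyrinogen decarboxylase, at 51.8 and 46.7 CPM (-0.15, -0.23 to -0.08). Both differed by less than 2-fold, and that of Urod came close to 0 when another scaling was used (-0.05 by the median of ratios). The overlapping gene 4930500F10Rik lies antisense to Alas1 (9:106233455-106248654) and was not separated beyond what the counting did.

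The carbonic anhydrases differed from each other. Car1, with 845 WT and 581 cKO UMIs, was lower in cKO, with levels of 20.1 CPM (18.7 to 21.5) and 6.65 CPM (6.12 to 7.21), and its log2 ratio was -1.59 (-1.75 to -1.44). Car2 had the most UMIs of the 10 genes, not corrected for length, with 27393 in WT and 67180 in cKO, and levels of 651 CPM (643 to 659) and 769 CPM (763 to 774). Its log2 ratio of 0.24 (0.22 to 0.26) was within 2-fold and had no settled direction, since it was -0.06 with CPM averaged per cell. These genes are neighbours on chromosome 3 (Car1 3:14766216-14808368, minus strand, overlapped by Gm16399 on the same strand, and Car2 3:14886273-14900770, plus strand). Of the other 14 carbonic anhydrases, 2 reached 5 CPM: Car3 went from 15.5 to 7.37 CPM (log2 ratio -1.07) and Car9 from 11.4 to 10.5 CPM.

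**Figure D1:**
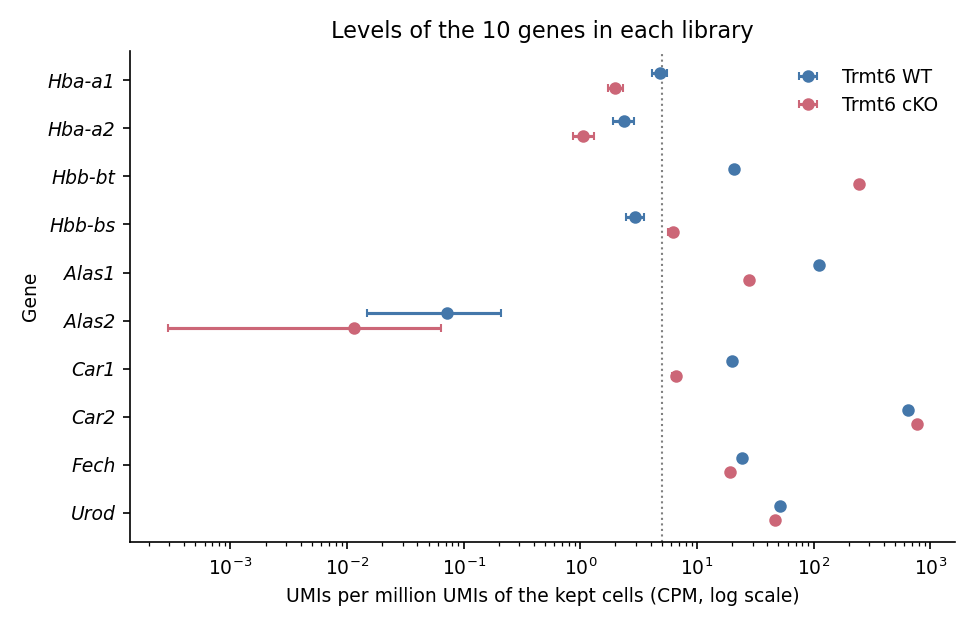
Level of each gene in the WT (blue) and cKO (red) library, in CPM over the kept cells on a log axis, with 95% Poisson intervals, drawn where wider than the point, and the dotted line marks 5 CPM. Hbb-bt lies furthest to the right in cKO relative to WT, Alas1 and Car1 lie to the left, and Alas2 rests on 3 and 1 UMIs.

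Read against all genes, the set was mixed. Of the 9142 genes that reached 5 CPM in either library, 266 (2.91%) were at least 2-fold higher and 472 (5.16%) at least 2-fold lower in cKO. Of the 10 genes, 7 reached that level: Hbb-bt and Hbb-bs were past 2-fold higher, Alas1 and Car1 past 2-fold lower, and Car2, Fech and Urod within 2-fold. Their median log2 ratio was -0.15, against -0.07 for all genes. Since the genes were chosen with such values known, nothing is read from these counts.

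The pathway around the set was mostly within 2-fold, as were most genes. Of 24 genes of haem synthesis, transport and breakdown, 23 were in the matrices and 21 reached 5 CPM, all of them within 2-fold, with a median log2 ratio of -0.06, beside the 2.91% of all genes past 2-fold higher and the 5.16% past 2-fold lower. Glrx5, an iron-sulfur cluster protein, was the highest at 194 and 199 CPM, followed by Tmem14c, a porphyrin transporter (149 and 182 CPM), and Hmox2, a haem oxygenase (100 and 95.6 CPM). The largest difference upwards was that of Iba57 (log2 ratio 0.47) and the largest downwards that of Tfrc, the transferrin receptor (-0.70). The inducible haem oxygenase Hmox1 stayed under 5 CPM, with 0.641 CPM in the WT and 4.47 CPM in the cKO library, and cKO over WT came to 2.78 on the log2 scale (2.24 to 3.42).

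Genes of the erythroid lineage were mostly level or lower in cKO, to be read beside the 2.91% of all genes past 2-fold higher and the 5.16% past 2-fold lower. Of 20 early erythroid genes, 12 reached 5 CPM, of which 1 was past 2-fold higher, 4 past 2-fold lower and 7 within 2-fold, with a median log2 ratio of -0.62. Klf1, the erythroid transcription factor that drives beta globin, went from 6.25 to 2.62 CPM (-1.25) and Gata1 from 15.3 to 6.52 CPM (-1.23), while Mfsd2b (-2.40) and Aqp1 (-2.37), a lipid and a water transporter of red cells, differed most. Of the 12, 5 were higher in cKO, and Epor, the erythropoietin receptor, was the only gene past 2-fold higher, at 3.06 and 6.34 CPM (1.04). The highest of the list were Lmo2 (505 and 510 CPM), Nfe2 (99.9 and 104 CPM) and Zfpm1 (29.1 and 32.6 CPM), which stem cells also use. Of 20 late erythroid genes, 18 were in the matrices, 6 reached 5 CPM and all 6 were within 2-fold (median -0.17), the highest being Bnip3l (127 and 102 CPM), Mkrn1 (73.0 and 68.6 CPM) and Hemgn (22.4 and 15.3 CPM). The red cell membrane anion exchanger Slc4a1 was barely counted (0 and 1 UMIs).

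The spread of Hbb-bt over cells was uneven in both libraries but wide in cKO. At least 1 UMI was counted in 543 of 8144 WT cells (6.67%, 6.14 to 7.23) and in 3535 of 8480 cKO cells (41.7%, 40.6 to 42.7). After thinning to 2000 UMIs these shares were 3.44% (3.05 to 3.86) and 21.5% (20.7 to 22.4). Had every cell held the same level, 4.70% of thinned WT and 40.1% of thinned cKO cells would have had a UMI, so fewer cells carried more of it than an equal level gives. By count per thinned cKO cell, 6571 cells had 0, 906 had 1, 659 had 2 to 4, 205 had 5 to 9 and 34 had 10 to 19 UMIs, and the last 34 cells held 9.78% of the thinned UMIs. In WT, 220 cells had 1 UMI, 45 had 2 to 4, 7 had 5 to 9 and 1 had more.

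**Figure D2:**
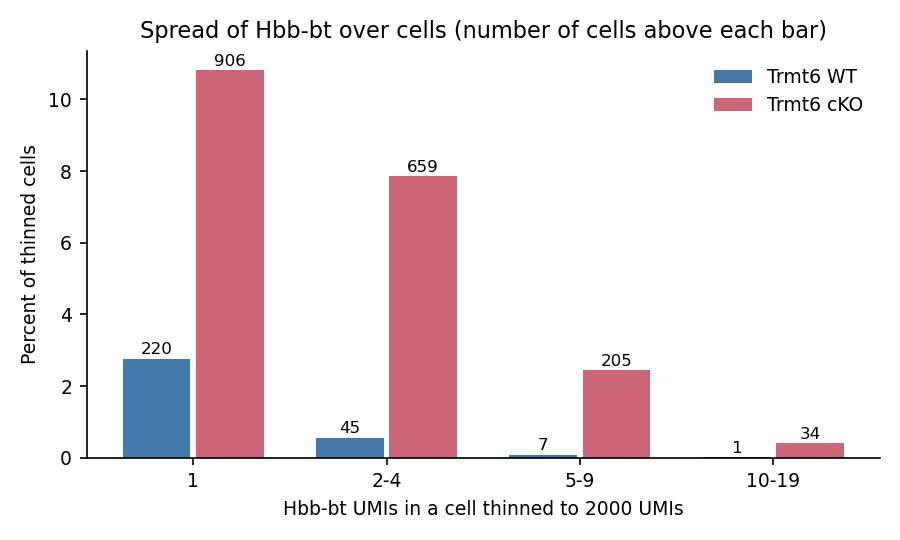
Percent of cells (y axis) by the number of Hbb-bt UMIs in a cell thinned to 2000 UMIs (x axis) in WT (blue) and cKO (red), with the number of cells above each bar; cells with 0 UMIs, 7670 WT and 6571 cKO, are not drawn. Each cKO bar is higher than the WT bar beside it, and 34 cKO cells against 1 WT cell had 10 to 19 UMIs.

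No single cell made the cKO level. The cKO cell with most Hbb-bt UMIs held 90 of 21300 and the next 84, and the 1% of cells with most held 19.2%, against 41.0% in WT, where the largest cell held 21 of 880. Without the 1% of cells with most in each library, the log2 ratio was 3.998. The variance of thinned counts over their mean, which is 1 for counts spread at random, was 3.95 in cKO and 2.34 in WT. Hbb-bt UMIs did not grow in step with depth: in 4 equal classes of rising total UMIs the cKO cells held 1.66, 2.84, 3.02 and 2.66 UMIs each, or 284, 320.0, 265 and 171 CPM, and the WT cells 0.108, 0.0772, 0.125 and 0.122 UMIs each, or 41.1, 21.5, 24.1 and 12.7 CPM.

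The other genes ranged from concentrated to even. Shares at full depth are set here against the share an equal level gives in the same library, and are not compared between libraries. Hbb-bs was seen in 75 WT cells (0.921%) and 316 cKO cells (3.73%), with 37 of 124 WT UMIs in 1 cell and at most 32 in a cKO cell. Hba-a1 was seen in 45 WT and 78 cKO cells and Hba-a2 in 41 and 49 cells. Relative to the share of cells that an equal level gives, Car1 fell furthest short, in 98 WT cells (1.20%, where an equal level would give 9.68%) and 45 cKO cells (0.531% against 6.59%), with up to 100 and 102 UMIs in a cell. By variance over mean in thinned cells, Hba-a1 was the more concentrated in WT, at 7.92 against 5.30 for Car1. Alas1 was seen in 22.2% of WT cells against 40.8% at an equal level, and in 23.2% of cKO cells against 24.5%, so its WT counts were concentrated and its cKO counts nearly even. Fech (11.5% of WT and 17.5% of cKO cells) and Urod (22.6% and 36.7%) were close to the shares that an equal level gives, which were 11.6% and 17.7% for Fech and 22.6% and 37.1% for Urod. Car2 was seen in 77.2% of WT and 94.4% of cKO cells, and in 60.1% and 69.9% after thinning. After thinning, the order of the libraries turned for Alas1 (10.8% of WT and 5.34% of cKO cells), Fech (4.56% and 3.82%) and Urod (10.2% and 9.27%), and for Hba-a2 the counts were 19 and 17 cells.

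To see which cells held these transcripts, cells were grouped by marker genes that include no gene of the set: a cell entered a gate with at least 2 different markers of a list among its 2000 UMIs, and the granulocyte-monocyte progenitor (GMP) and neutrophil gates with 20 or more summed marker UMIs. A gate is a range of marker counts, not a cell type, and gates could overlap. In cKO, 53 of 158 monocyte/DC-gated, 53 of 121 B-gated, 66 of 952 HSC-gated and 2 of 28 erythroid-gated cells passed another gate too. In WT these were 59 of 217, 7 of 19, 106 of 671 and 25 of 71 cells. The erythroid gate (Klf1, Epor, Aqp1, Mfsd2b, Icam4 and others) held 71 WT cells (0.894%) and 28 cKO cells (0.334%), of which 59 and 20 had just 2 markers. The HSC gate (Procr, Hlf, Mecom and others) held 671 and 952 cells, 542 and 721 of them at the limit, with a median of 0 UMIs of the erythroid list per cell in both libraries. GMP markers were higher in the HSC gate of WT, at a mean of 3.00 UMIs per thinned cell beside 2.75 of the HSC list, than in that of cKO, at 1.17, and their part in the comparisons of this gate was not tested. The B gate (Cd79a, Vpreb1, Ebf1 and others) held 19 and 121 cells and the GMP gate (Mpo, Elane, Prtn3, Ctsg) 610 and 21, and both had a median of 0 erythroid and 0 HSC marker UMIs. The gate of the T and NK list held 187 and 190 cells and rested on Nkg7 and Gata3, with no UMI of Cd3e, so it is named here by those genes. No gate took 5062 WT and 6737 cKO cells, and median depth ran from 3001 UMIs in the HSC gate to 11504 in the GMP gate in WT, and from 5651 in the B gate to 18033 in the GMP gate in cKO.

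Erythroid-gated cells carried Car1, as a check of the gate, while alpha globin lay in few of them. Car1 stood there at 1336 CPM (592 UMIs) in WT and 897 CPM (325 UMIs, of 579 in all cKO cells with at least 2000 UMIs) in cKO, against 8.48 and 3.35 CPM in cells of no gate and 3.09 and 1.06 CPM in the HSC gate. In cKO no Car1 UMI was counted in the B gate, with 0 of 121 cells. That count would allow up to 2.48% of cells with a UMI at that depth. None was counted in the megakaryocyte, LMPP (lymphoid-primed progenitor), Nkg7 and Gata3, monocyte/DC, mast/basophil and GMP gates of cKO either. The WT mast/basophil gate had 99.3 CPM, but 1.0 CPM without 1 cell. Alpha globin, Hba-a1 and Hba-a2 together, stood at 465 CPM in the WT erythroid gate and 290 CPM in that of cKO, and at 3.97 and 2.12 CPM in the HSC gate. In WT, 189 of these 206 erythroid-gated UMIs came from 1 cell and the other 17 from 1 more, so the remaining cells of the gate held none. In cKO all 105 lay in the 8 cells with 3 or more markers, 48 of them in 1 cell, and the 20 cells with 2 markers held none.

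Hbb-bt followed another order in cKO. It was highest in the monocyte/DC gate at 390 CPM (355 to 427) and the HSC gate at 378 CPM (364 to 392), which did not differ in level beyond their intervals, and 1 monocyte/DC-gated cell held 69 of that gate's 465 UMIs. Cells of no gate stood at 238 CPM and the Nkg7 and Gata3 gate at 226 CPM (203 to 250), where 1 cell held 84 of 371 UMIs. The megakaryocyte gate at 141 CPM (116 to 170) and the LMPP gate at 91.3 CPM (77.6 to 107) came below. In these gates 1 cell held 26 of 114 and 45 of 156 UMIs, and in the B gate 1 cell held 8 of 22. The erythroid gate, at 35.9 CPM (19.1 to 61.3), the mast/basophil gate, at 33.2 CPM (15.2 to 63.1), and the B gate, at 27.7 CPM (17.4 to 42.0), could not be told apart, and the GMP gate had 2 UMIs, or 5.25 CPM.

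The gap between cKO gates was large against counting error. The HSC gate held 13.3 times the level of the B gate, a log2 fold of 3.73 (3.17 to 4.44), and 10.1 times that of the erythroid gate (3.34, 2.62 to 4.31). With likely doublets kept, the log2 fold over the B gate was 1.41 (1.17 to 1.67). Against the GMP gate the log2 fold was 5.85 (4.32 to 9.22), on 2 UMIs in 21 cells. In thinned cells, a UMI of Hbb-bt was found in 29.6% of HSC-gated cKO cells (26.7 to 32.6), in 17.1% of monocyte/DC-gated cells (11.6 to 23.9), in 6 of 121 B-gated cells (4.96%, 1.84 to 10.5), in 1 of 21 GMP-gated cells (4.76%, 0.120 to 23.8) and in 0 of 28 erythroid-gated cells, which held 13 Hbb-bt UMIs at full depth. B cells and GMP should lack globins, and the shares in these gates are given for comparison.

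In WT the levels were lower and fewer gates could be told apart. The erythroid gate had 36 UMIs, or 81.2 CPM (56.9 to 112), of which 21 lay in 1 cell, and without it the level was 34.8 CPM. That did not differ clearly from the monocyte/DC gate at 36.0 CPM (25.4 to 49.7) or the HSC gate at 32.2 CPM (25.2 to 40.5), and cells of no gate stood at 23.1 CPM. The GMP gate was lower, with 16 UMIs in 610 cells or 2.28 CPM (1.30 to 3.70), a log2 fold of HSC over GMP of 3.79 (3.03 to 4.70). After thinning, 0 of 610 GMP-gated cells had a UMI, a count that would allow up to 0.492% of cells with a UMI at that depth, against 4.77% of HSC-gated cells. The 19 B-gated cells had no Hbb-bt UMI, a count that would allow up to 15.8% of cells with a UMI at that depth.

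Within gates, Hbb-bt was higher in cKO than in WT in all but the erythroid and GMP gates. The log2 ratio of cKO over WT was 3.54 in the HSC gate, 3.42 in the monocyte/DC gate and 3.36 in cells of no gate. It was 3.17 in the Nkg7 and Gata3 gate, 3.03 in the megakaryocyte gate and 2.11 in the LMPP gate. In the mast/basophil gate it was 1.63 (0.17 to 3.03), on 11 WT and 9 cKO UMIs. In the GMP gate it was 1.48 (-1.96 to 3.29), and in the erythroid gate it was -1.14 (-2.22 to -0.23), where 21 of 36 WT UMIs and 8 of 13 cKO UMIs lay in 1 cell each. The B gate had 0 WT UMIs and gives no ratio.

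**Figure D3:**
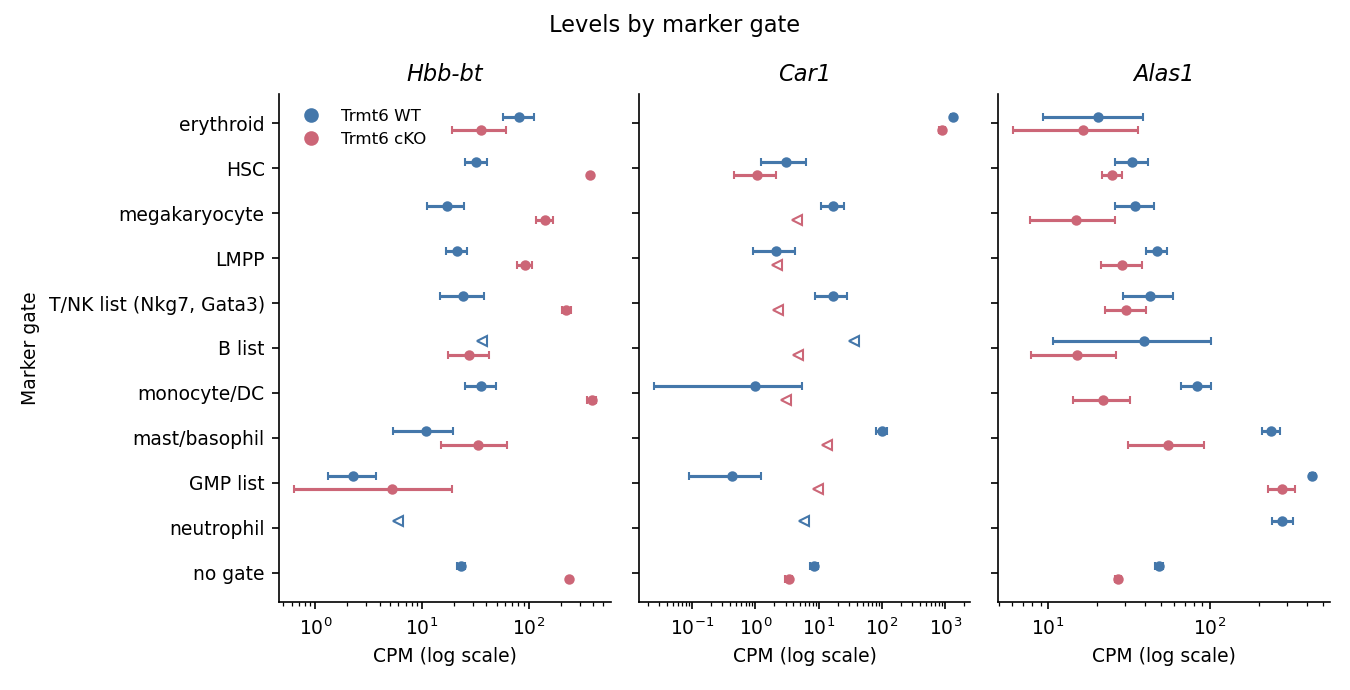
Levels of Hbb-bt, Car1 and Alas1 (CPM, log axes that differ between panels) in cells grouped by markers, in WT (blue) and cKO (red), with 95% Poisson intervals; open triangles mark the upper bound where no UMI was counted, and the neutrophil gate has no cKO cells. In cKO, Hbb-bt is low and Car1 high in the erythroid gate, while Alas1 is highest in the GMP gate in both libraries.

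The remaining genes differed in how far their levels varied by gate. Alas1 was highest in the GMP gate, at 429 CPM (413 to 444) in WT and 278 CPM (228 to 336) in cKO, with a log2 fold of GMP over HSC of 3.69 and 3.48. The WT GMP gate held 3013 of the 4680 Alas1 UMIs. This gate held 610 WT and 21 cKO cells. The log2 ratio of Alas1, cKO over WT, was below 0 in every gate with cells in both libraries. It was -2.07 (-2.98 to -1.37) in the mast/basophil gate and -1.91 (-2.62 to -1.28) in the monocyte/DC gate, near the -2.00 of the whole library, and -1.17 (-2.26 to -0.30) in the megakaryocyte gate. GMP markers were also lower in these gates in cKO, with a mean of 18.8 and 5.42 UMIs per thinned cell in the mast/basophil gate, 5.41 and 0.892 in the monocyte/DC gate and 1.53 and 0.709 in the megakaryocyte gate, and their part in the ratios was not tested. The ratio was nearer 0 in cells of no gate, at -0.85 (-0.95 to -0.75), in the LMPP gate, at -0.70 (-1.20 to -0.25), in the GMP gate, at -0.62 (-0.92 to -0.34), and in the HSC gate, at -0.42 (-0.80 to -0.0038). In the B, the Nkg7 and Gata3 and the erythroid gates the interval held 0. GMP markers were lower in cKO in the groups with ratios nearer 0 too. Their WT and cKO means were 4.72 and 1.24 UMIs per thinned cell in cells of no gate and 3.79 and 0.712 in the LMPP gate. They were 48.4 and 39.0 in the GMP gate and 3.00 and 1.17 in the HSC gate, and their part was not tested there either. Car2 was high in the erythroid gate (2818 and 2690 CPM), the megakaryocyte gate (1482 and 914 CPM) and the HSC gate (1488 and 989 CPM), and low in the GMP gate (66.1 and 94.4 CPM) and the cKO B gate (155 CPM), with 691 and 757 CPM in cells of no gate. Within the HSC gate Car2 was lower in cKO (log2 ratio -0.59, -0.65 to -0.53), while over all cells it had no settled direction. Fech and Urod were counted in every gate and stood higher in the erythroid gate, at 65.4 and 85.5 CPM for Fech and 97.0 and 124 CPM for Urod, against 23.3 and 18.9 CPM and 50.9 and 45.7 CPM in cells of no gate.

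Cells were also classed by their number of different erythroid markers. The classes with 2 and with 3 or more markers together are the erythroid gate, so these values are not a separate check of it. In cKO cells with 0, 1, 2 and 3 or more different erythroid markers, Car1 climbed from 1.25 to 69.5, 427 and 1586 CPM. Hbb-bt stood at 245, 247, 23.2 and 54.5 CPM, and in the last class all 8 UMIs lay in 1 cell. Hbb-bs stood at 6.04, 4.70, 9.27 and 123 CPM. In WT, Car1 climbed from 2.93 to 67.3, 896 and 2619 CPM and Hbb-bt from 19.1 to 35.9, 69.6 and 115 CPM. The last WT values for Hbb-bt came from a single cell each (21 of 23 and 13 of 13 UMIs), without which they were 6.30 and 0 CPM. Thus Hbb-bt did not rise with the erythroid marker count in cKO, and in WT the rise beyond 1 marker was carried by 1 cell per class.

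**Figure D4:**
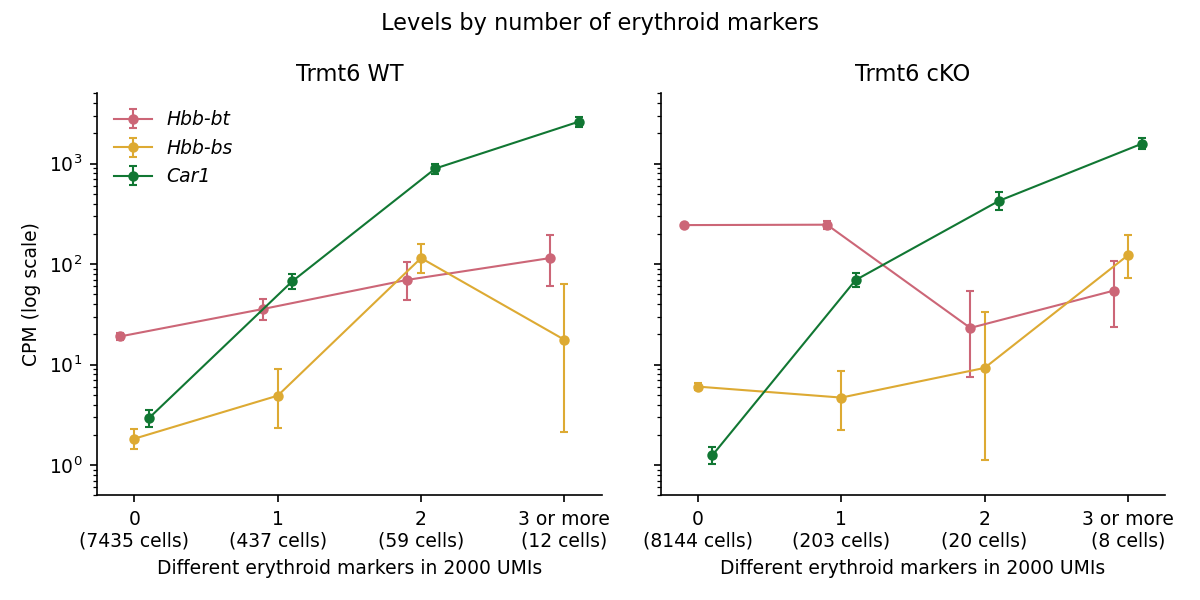
Levels (CPM, log axis) of Hbb-bt, Hbb-bs and Car1 in cells with 0, 1, 2 or 3 or more different erythroid markers among 2000 UMIs, with 95% Poisson intervals and the number of cells under each class. Car1 climbs in both libraries, whereas Hbb-bt in cKO goes from 245 CPM at 0 markers to 54.5 CPM at 3 or more; its WT values at 2 and at 3 or more rest on 1 cell each.

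Cells sorted by their own Hbb-bt count showed which genes went along with it in cKO, as a description since the count defined the classes. In the 6571 thinned cKO cells with 0, the 1565 with 1 to 4 and the 239 with 5 or more Hbb-bt UMIs, median depth was 10306, 9438 and 9455 UMIs. Erythroid genes did not go up: Car1 stood at 8.30, 0.130 and 0.414 CPM, Klf1 at 3.11, 0.713 and 0.829 CPM and Gata1 at 7.32, 3.56 and 1.24 CPM, while an erythroid marker was seen in 2.97%, 1.85% and 2.93% of the cells. The stem cell genes Procr, at 28.1, 47.6 and 57.2 CPM, and Hlf, at 69.8, 113 and 123 CPM, did. Car2, which stood higher in the erythroid than in the HSC gate, also went up, at 718, 930.3 and 1213 CPM. Mpo, a granule enzyme of myeloid progenitors, stood at 91.0, 24.8 and 5.80 CPM.

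The genes most like Hbb-bt over cells were ranked by Pearson's r of log counts in thinned cells, across 8923 WT and 8620 cKO genes. In cKO (8375 cells) these were Ifitm1 (0.17) and Car2 (0.15), followed by Rpl37a, Lgals1, S100a6, Ifitm3, Ost4, mt-Cytb, Socs2 and Cox6b1 (0.099). In WT (7943 cells) they were Ctla2a (0.057), Orai2, Tsc22d1, Tox, Rgs1, Zfp1, Ifitm1 (0.046), Car2 (0.045), Hsd17b7 and Jund, so 2 of 10, or 20% of each list, were shared. The erythroid genes gave r between -0.032 and 0.043 (Lmo2) in cKO, with a median of -0.004 over 27 entries, and a median of 0.010 over 32 in WT. Such values over sparse counts of cells that share a library are too weak to read as relations. For Alas1 the values were larger in WT, led by Elane (0.41), Mpo (0.36) and Ctsg (0.33), and in cKO by Mpo (0.099), with 4 of 10 genes shared. For Car2 they were led by Ctla2a and Apoe (both 0.33) in WT and by Ifitm1 (0.17) and Hbb-bt (0.15) in cKO, with 0 of 10 shared.

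The ratio between the globins differed with the cells. Over all kept cells Hbb-bt made up 87.6% of the beta globin UMIs in WT (85.5 to 89.6, 880 of 1004) and 97.5% in cKO (97.3 to 97.7, 21300 of 21843). In the cKO HSC gate it was 98.0% (97.4 to 98.5), in cells of no gate 97.5% (97.3 to 97.8) and in the LMPP gate 97.5% (93.7 to 99.3). In the cKO B gate it was 75.9% (56.5 to 89.7, 22 of 29 UMIs), and in the erythroid gate 39.4% (22.9 to 57.9, 13 of 33 UMIs). Without the erythroid-gated cKO cell with most adult globin this was 31.2% (11.02 to 58.7, 5 of 16 UMIs). In cKO, beta globin UMIs were thus almost all Hbb-bt in HSC-gated cells and split between Hbb-bt and Hbb-bs in erythroid-gated cells. The WT erythroid gate stood at 47.4% (35.8 to 59.2), but 1 cell held 58 of its 76 beta globin UMIs, and without it the share was 83.3% (58.6 to 96.4, 15 of 18 UMIs), which could not be told apart from the 93.6% (85.7 to 97.9) of the WT HSC gate.

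The alpha genes gave a like contrast. Alpha globin made up 73.0% and 76.1% of adult globin UMIs in the erythroid gates of WT and cKO, but 10.3% and 0.547% in the HSC gates and 8.24% and 0.638% in cells of no gate. Without the cell of each erythroid gate with most adult globin these shares were 48.6% in WT (31.4 to 66.0, 17 of 35 UMIs, those 17 all in 1 more cell) and 78.1% in cKO (66.9 to 86.9, 57 of 73 UMIs). Over all kept cells the share was 23.0% in WT, or 10.5% without the cell with most alpha globin, and 1.21% in cKO. Hbb-bs in cKO was highest in the erythroid gate at 55.2 CPM (33.7 to 85.2), or 32.5 CPM without the cell with most of it. It stood at 8.83 CPM (3.55 to 18.2) in the B gate, 7.81 CPM (5.95 to 10.1) in the HSC gate and 6.01 CPM in cells of no gate, and at 2.34 CPM (0.638 to 5.996) in the LMPP gate.

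In the barcodes left out for their haemoglobin content, Hbb-bt was a minor part of the beta globin UMIs. A limit of the study left out barcodes with 5% or more haemoglobin UMIs, which removed 1 barcode per library. The WT barcode had 12430 UMIs, of which 13.8% were haemoglobin, with 617 Hba-a1, 283 Hba-a2, 590 Hbb-bs and 230 Hbb-bt UMIs, and with 7 Alas2, 15 Car1 and 129 Car2 UMIs. The cKO barcode had 1013 UMIs and 208 genes, of which 76.3% were haemoglobin, with 193 Hba-a1, 188 Hba-a2, 339 Hbb-bs and 53 Hbb-bt UMIs, and with 2 Alas2 and 0 Car2 UMIs. Hbb-bt was 28.0% (25.0 to 31.3) and 13.5% (10.3 to 17.3) of their beta globin UMIs, and alpha globin 52.3% and 49.3% of all globin UMIs. The barcodes kept just inside the limit reached at most 1.97% haemoglobin in WT and 0.881% in cKO. The kept WT cell with most alpha globin had 141 Hba-a1, 48 Hba-a2, 37 Hbb-bs and 21 Hbb-bt UMIs, an Hbb-bt share of 36.2% (24.0 to 49.9). That of cKO had 36 Hba-a1, 12 Hba-a2, 9 Hbb-bs and 8 Hbb-bt UMIs, a share of 47.1% (23.0 to 72.2).

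**Figure D5:**
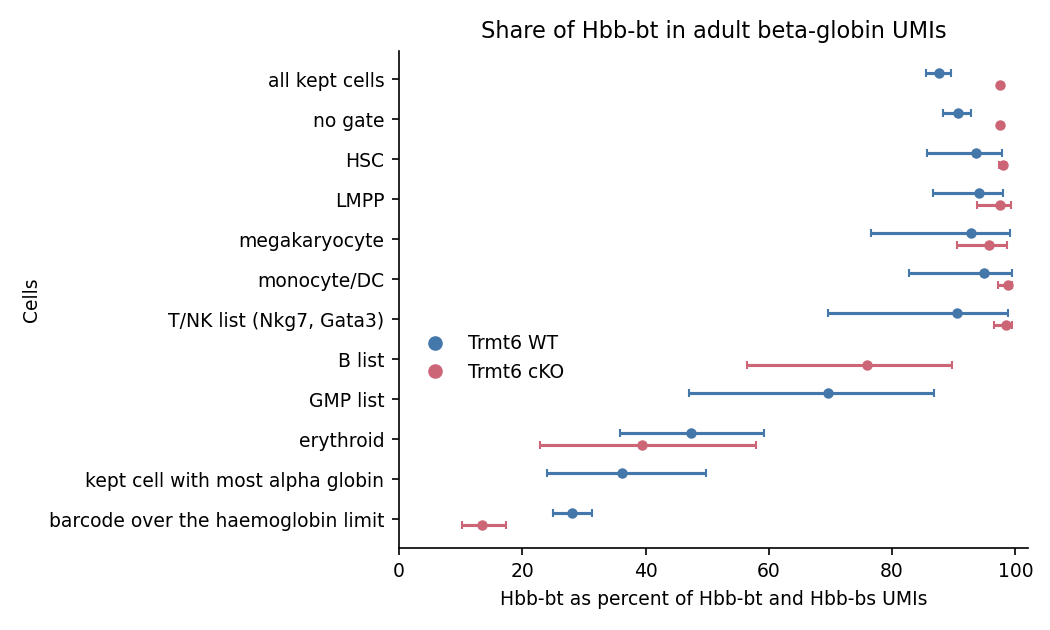
Hbb-bt as a percent of Hbb-bt and Hbb-bs UMIs (x axis) with 95% Clopper-Pearson intervals, in WT (blue) and cKO (red) cells grouped by markers, in the kept cell with most alpha globin and in the barcode over the haemoglobin limit, where at least 20 such UMIs were counted. The cKO shares run from 98.7% in the monocyte/DC gate, with 97.5% over all kept cells, to 39.4% in the erythroid gate and 13.5% in the cKO barcode over the limit, and the 47.4% of the WT erythroid gate was 83.3% without 1 cell.

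The source of the Hbb-bt UMIs was not tested, and droplets without a cell were not analysed here.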

How the data were processed

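The authors deposited raw UMI counts per gene and barcode, made with Cell Ranger 6.0.0 on mm10 (per the labels and file headers). Members and gene lists were chosen with earlier results of these data known. Cells passed the study's limits: over 200 genes, under 4000 genes and 10% mitochondrial UMIs in WT, under 4500 genes and 5% in cKO, and under 5% haemoglobin UMIs. Likely doublets, 619 WT and 671 cKO cells, were removed as the top 0.8% per 1000 barcodes by the share of simulated doublets among 50 neighbours in 20 components of 1500 genes, members left out. Levels are summed counts per 1000000 UMIs (CPM). Ratios add 0.5 to each count. Intervals are exact (Poisson, conditional binomial, Clopper-Pearson; scipy 1.17.1, numpy 2.4.6, scikit-learn 1.9.0, Python 3.11.15), and limits of a count of 0 use 3 counts. With 1 library per genotype there is no test; a gene past 2-fold at 5 CPM or more counts as called. All 10 members were named, and of each list the 3 highest genes and the largest rise and fall. List symbols not found were Trbc1, Cavin2, Trdc, Hbb-bh3, Hbb-bh0, Ahsp, Flvcr1 and Tent5c. Coordinates come from GENCODE M21 and promoters from RefSeq (GRCm38.p6). Alternatives were other cell filters, scalings (TMM of edgeR 4.0.16 in R 4.3.3, median of ratios), thinning depths, gates, minimum levels and seeds. Scripts were tested on simulated data. Reads and empty droplets were not analysed here. Values of 1 listed erythroid gene are not reported here.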

Additional observations from a re-analysis of the deposited data

Results flagged for a closer look

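The log2 fold of Hbb-bt in erythroid-gated over lymphoid-gated cells (the B gate and the Nkg7 and Gata3 gate together) had opposite directions in the libraries, 1.89 (1.07 to 2.79) in WT and -2.12 (-3.10 to -1.39) in cKO. The difference between the libraries was not tested, as each genotype is 1 library. The WT value was 1.02 (-0.11 to 2.16) without the cell of each gate with most Hbb-bt UMIs. The cKO value turned to 2.55 (0.86 to 4.39) with 3 different markers per gate, the same direction as in WT but on 8 erythroid-gated UMIs that all lay in 1 cell, and was -0.033 (-0.77 to 0.58) with gates read at 1000 UMIs. It was 0.39 (-0.74 to 1.42) over the B gate alone, because the 190 cells of the Nkg7 and Gata3 gate held 371 of the 393 lymphoid-gated UMIs.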

How the results depend on the processing

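No replicate exists, so depth and single cells set the limits: rare gates, alpha globin and Hbb-bs rest on few UMIs. No paired analysis was possible because each genotype is 1 library. The added alternatives (B gate alone, leaving out the cell with most UMIs or most adult globin, and the folds of the HSC gate) were chosen after seeing the data. The causes were not tested unless the alternative's construction shows them. The log2 ratio of Hbb-bt (3.54) was 3.25 with no filter, 3.21 with no haemoglobin limit, 3.65 by the median of ratios, 3.28 with CPM averaged per cell, 3.41 in thinned cells and 3.998 without the 1% of cells with most. That of Hbb-bs (1.07) reversed to -0.66 with no filter and -0.75 with no haemoglobin limit, and that of Hba-a1 (-1.25) to 0.15 without the cell with most UMIs. Of 86 alternative values for the other genes, 54 moved by less than counting error, 29 moved by more and 3 reversed. With no minimum level, 1715 genes were past 2-fold higher and 2885 lower (266 and 472 at 5 CPM), and 5 members lower (2), while at 10 CPM 1 member was higher (2). The share of cells with an Hbb-bt UMI (3.44% in WT, 21.5% in cKO) was 2.13% and 14.0% at 1000 UMIs and 6.67% and 41.7% without thinning. The erythroid over lymphoid fold of Hbb-bt in WT (1.89) was 4.35 with 3 markers, 3.54 at 1000 UMIs, 4.06 over the B gate alone and 1.02 without the largest cells. In cKO (-2.12) it was -0.033 at 1000 UMIs and reversed to 2.55 with 3 markers and 0.39 over the B gate alone. HSC over B in cKO (3.73) was 5.35 with 3 markers, 3.03 at 1000 UMIs and 1.41 with doublets kept. HSC over GMP was 2.91 with another seed in WT (3.79) and 3.69 at 1000 UMIs in cKO (5.85). The Hbb-bt share of beta globin with no filter was 62.6% in WT (87.6%) and 96.2% in cKO (97.5%), and 97.2% in cKO without the 1% of cells with most. Without the erythroid-gated WT cell with most adult globin, the Hbb-bt share of beta globin in that gate was 83.3% (47.4%) and the alpha share of adult globin 48.6% (73.0%). Genes shared by the lists most like Hbb-bt (2) were 1 by Spearman and 1 with another seed. Another scaling shifted all log2 ratios by 0.08 to 0.10 and turned no called gene of the set. The fold of Hbb-bs in WT could not be given with 3 markers or without the largest cell, nor HSC over GMP with 3 markers.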
